A study of Saccharomyces cerevisiae with 49 samples.

Results

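Cytosolic ribosomal protein genes of budding yeast (Saccharomyces cerevisiae) were followed through 3 synchronized time courses. The members were the genes whose symbol is RPL or RPS followed by a number, with or without the letter A or B, together with RPP0, RPP1A, RPP1B, RPP2A and RPP2B. They were 133 of the 6228 features measured: 73 encode proteins of the large (60S) subunit, 5 encode the acidic stalk of the large subunit, and 55 encode proteins of the small (40S) subunit. The members include 57 pairs of gene copies, A and B, which make up 114 of them. RPL29 and RPL36B were not analysed here. RPL8A, RPL9B, RPL11B, RPL14B, RPL31B, RPS1A, RPS19A and RPS30A had values on fewer than 80% of the 49 arrays, which left 125 members for descriptions over all arrays.

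Each oligonucleotide array set synchronized cells, labelled with Cy5, against unarrested cells in mid-log growth, labelled with Cy3. A value is the log2 ratio of synchronized over unarrested cells after centring of the array on its median, so it tells how far a gene stood from its own level in unarrested cells and not how much of its RNA there was. The alpha-factor group was BY4741 bar1- cells, which lack the protease that degrades the pheromone. They were held for 3 h with alpha factor at 1 ug/ml, then filtered into fresh YPD that held a supplement at 5 ug/ml, which the labels leave unnamed, and sampled on 17 arrays from 0 to 150 min. The cdc28 group was BY4741 cdc28(ts) cells, in which the Cdc28 kinase that drives the cycle fails when warm, held for 3 h at 37 °C and released by cooling with cold YPD. It had cultures E (16 arrays, 0 to 160 min) and B (16 arrays, 0 to 225 min). Slide names start with yoG on every culture E array and with yofG on every culture B and alpha-factor array. This difference cannot be told apart from culture E. Both arrests hold cells in G1, and the unarrested cells were of the same strain as the synchronized cells they were set against. Strain, unarrested cells, kind of arrest, temperature and culture cannot be told apart between the groups. The labels also name total RNA for the alpha-factor arrays and polyA RNA for the cdc28 arrays, although both extraction protocols end with a purification of messenger RNA, and this difference too cannot be told apart from the groups. Within a course each time was sampled from the same culture, so a p-value there measures the scatter of the arrays of that culture.

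A ribosomal protein gene supplies 1 protein of a particle that needs nearly all of them in equal numbers, and yeast makes these messengers in large amounts during rapid growth. Their promoters are known for a shared control by Rap1, Fhl1, Ifh1 and Sfp1, which links them to nutrient signals through the TOR and protein kinase A pathways. Many are present as A and B copies that encode the same or nearly the same protein.

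The arrays held between 4189 and 6110 values. The culture B array at 135 min stood apart: it had the fewest values, the widest spread of all features (SD 0.92) and a median of the members of 0.21, between 1.06 at 120 min and 1.02 at 150 min. Where it moved a result named here, the value without it is given too. Of the genes that mark the a mating type, BAR1 and STE2 had no value on any of the 17 alpha-factor arrays, while MFA1, MFA2 and STE6 had values on every array of all 3 courses.

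In the alpha-factor course the median of the members was 0.13, 0.03, -0.03 and 0.11 at 0, 10, 15 and 20 min after release, and 0.14 at 30 min. From 40 min onwards it lay between 0.39 at 70 min and 0.72 at 100 min, above all 5 earlier arrays. Culture E started at 0.64, had 0.37 at 10 min, 0.99 at 40 min and 0.96 at 70 min, then 0.45 at 90 min, 0.17 at 120 min and -0.09 at 160 min. Culture B started at 0.42 and had 1.11 at 30 min and 1.15 at 45 min. It stayed between 1.02 and 1.08 at 75, 90, 105, 120 and 150 min, and ended at 0.74 at 225 min. Low arrays within culture B were those at 60 min (0.58), 135 min and 195 min (0.44).

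**Figure D1:**
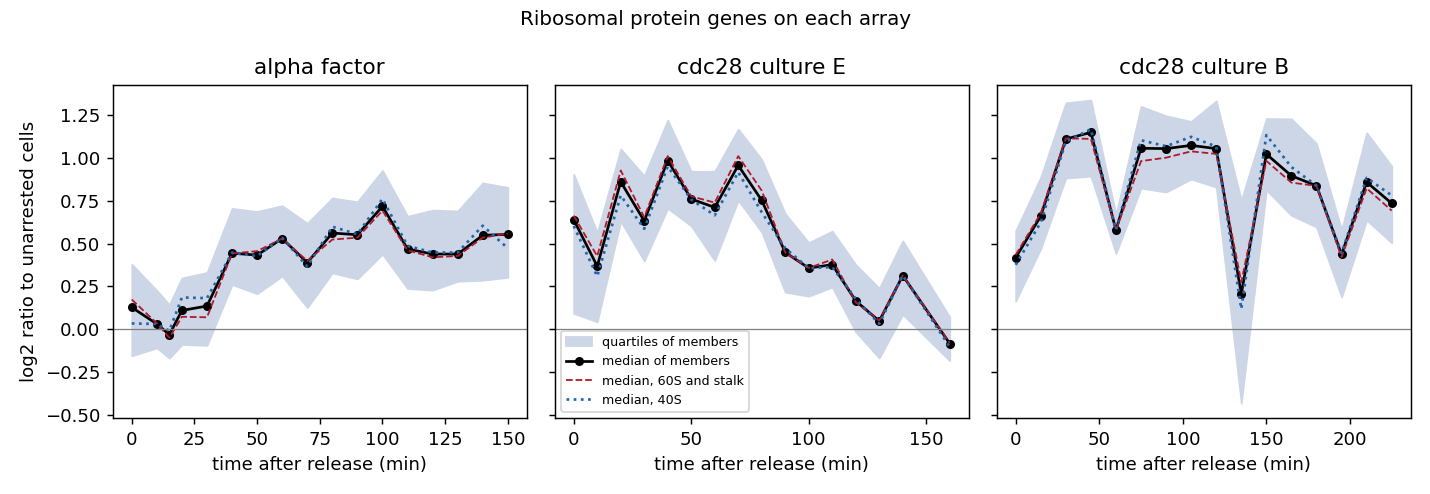
Log2 ratio of the ribosomal protein genes to unarrested cells against the time after release (min), for the alpha-factor course, cdc28 culture E and cdc28 culture B. Black points are the median of the members on each array, the band spans their quartiles, and dashed and dotted lines are the medians of large-subunit (with stalk) and small-subunit genes. The alpha-factor medians lie at or below 0.14 up to 30 min and between 0.39 and 0.72 later.

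The first 20 min after release were set against the later arrays of the alpha-factor course. limma called 73 of 131 members lower in the first 20 min at an adjusted p under 0.05, where the share of all features called lower was 4.24%. It called 0 members higher, against 3.32% of all features, and 3 members had a positive difference with no call. The median difference of the members was -0.40, and that of all 5359 features was 0.01. All 4 early arrays lay below all 13 later ones for 12 of 129 members with complete values, against 0.943% of all features with complete values.

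Among large-subunit genes 38 of 72 were lower, with a median difference of -0.40. RPL28, known for mutations that give resistance to cycloheximide, had -0.77, -0.31, -0.12 and -0.27 at 0, 10, 15 and 20 min, against a lowest value of -0.22, a median of 0.42 and a highest of 0.65 on the later arrays. Only the 30 min array overlapped the early ones. Its difference was -0.73 ± 0.13 (SE, adjusted p = 0.00478). RPL15B averaged 0.27 ± 0.19 in the first 20 min, against 1.06 ± 0.25 later (SD, n = 4 and 13), with a difference of -0.78 and an adjusted p of 0.0037. Its copy RPL15A had a difference of -0.70 (adjusted p = 0.00493), and RPL9B had one of -0.79 (adjusted p = 0.00848). RPL3, which encodes a core protein near the peptidyl transferase centre, had 0.52, -0.03, -0.23 and 0.04 at 0, 10, 15 and 20 min, against a lowest value of 0.10 and a highest of 1.23 later. Its 0 min value fell inside the later range, and the difference was -0.63 ± 0.15 (SE, adjusted p = 0.0176).

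Of the 5 stalk genes 2 were lower. RPP0, which encodes the protein that anchors the stalk to the 60S body, had -0.08, -0.47, -0.23 and -0.38 at the 4 early times, against a lowest value of -0.18 and a highest of 0.56 later. The groups overlapped, and the difference was -0.46 ± 0.12 (SE, adjusted p = 0.0259). RPP1B, an acidic stalk protein gene, had a difference of -0.30 (adjusted p = 0.0354). RPP1A, RPP2A and RPP2B had differences of -0.28, -0.20 and -0.15 that did not pass.

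Among small-subunit genes 33 of 54 were lower, with a median difference of -0.43. RPS20 had 0.44, 0.56, 0.14 and 0.54 at 0, 10, 15 and 20 min, against a lowest value of 0.48, a median of 1.33 and a highest of 1.69 later. Only its 30 min array reached down to the early range, and its difference of -0.88 ± 0.15 was the largest among members (SE, adjusted p = 0.0037). RPS31, which encodes ubiquitin fused to a ribosomal protein, had 0.27, 0.42, 0.29 and 0.45 on the early arrays, against 0.49 to 1.54 on the later ones. Its groups did not overlap, and the difference was -0.70 ± 0.14 (SE, adjusted p = 0.00666). RPS3, at the entry of the messenger channel, averaged -0.26 ± 0.10 early and 0.41 ± 0.27 later (SD, n = 4 and 13, adjusted p = 0.00848). RPS9B had a difference of -0.75 (adjusted p = 0.0113).

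At the other end stood RPL32, RPS15, RPS26A, RPS30A and RPL11B, none of which passed. RPL32, a 60S gene with no second copy, averaged 0.41 ± 0.28 early and 0.07 ± 0.24 later (SD, n = 4 and 13, adjusted p = 0.142). RPS15 averaged 0.48 early and 0.37 later. The array name letters T and B, which the labels give without explanation, each held 2 early arrays: within T the median difference was -0.37, and within B it was -0.44. Without the array at 10 min 38 members were lower and without that at 15 min 43, with median differences of -0.41 and -0.38. Shares of all features are not given for these fits, so the counts cannot be set against them.

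**Figure D2:**
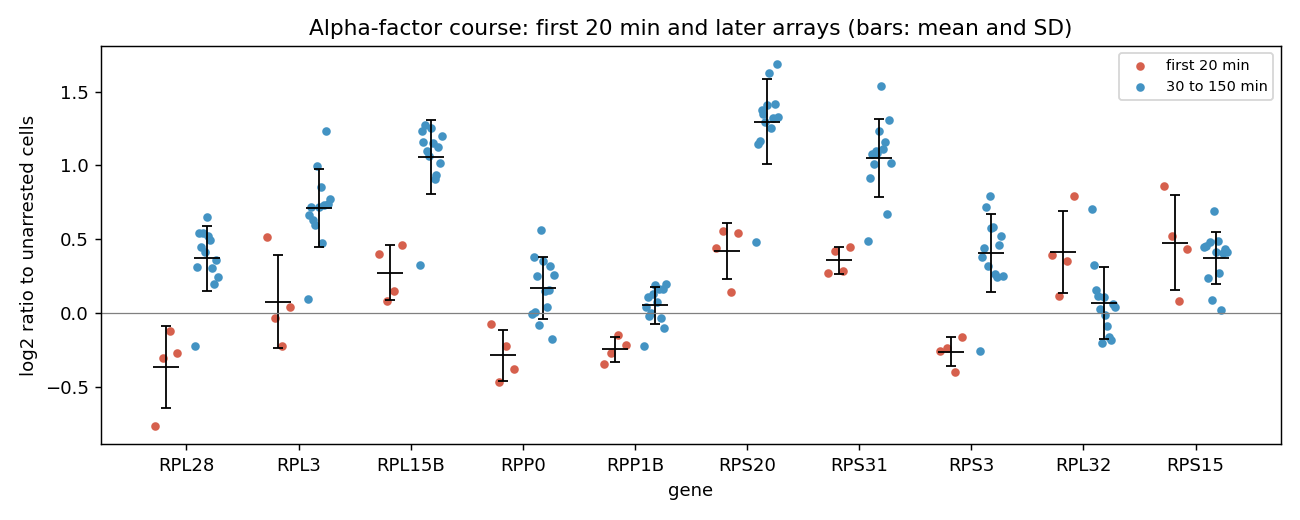
Log2 ratio to unarrested cells of 10 members on each alpha-factor array, with arrays of the first 20 min in red to the left and arrays from 30 to 150 min in blue to the right. Bars are the mean and SD. RPS31 has no overlap between its groups (0.27 to 0.45 early, 0.49 to 1.54 later), while RPL32 and RPS15 have higher means in the first 20 min.

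Other genes of protein synthesis were counted in the same comparison. Of 29 translation factor genes 2 were lower and 0 higher, with a median of -0.15: YEF3, a fungal elongation factor, had a difference of -0.57 and GCD11, a subunit of initiation factor eIF2, one of -0.39. Of 12 genes of ribosome-associated proteins 3 were lower: ASC1, a 40S-bound scaffold (-0.87), SSB1, a chaperone of nascent chains (-0.50), and TMA19 (-0.50). Of 8 regulators of ribosomal protein genes limma called 0, with 2 at an unadjusted p under 0.05. Of 42 ribosome biogenesis genes and of 41 mitochondrial ribosomal protein genes it also called 0, with 2 of each at an unadjusted p under 0.05 and medians of -0.06 and 0.01. The difference between these lists and the members was not tested.

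A linear trend over time, fitted beside the cycle terms, gave each course a change per hour. In the alpha-factor course 66 of 131 members had a positive slope (8.01% of all features) and 1 a negative slope (7.93%), with a median of 0.19 per hour. The median of the members went from 0.14 at 30 min to 0.44 at 40 min and was 0.55 at 150 min, so a slope need not mean a steady rise. Of the 66 members 53 (80.3%) were also called lower in the first 20 min, where 55.7% of the tested members were. Both results, and the difference of slopes below, draw on the same early arrays. In culture E 82 of 124 members had a negative slope (20.9% of all features) and 1 a positive slope (24.0%), with a median of -0.28 per hour. In culture B 0 of 124 members passed in either direction, with 6 at an unadjusted p under 0.05 and a median of -0.03 per hour, where 11.8% of all features had a positive and 14.5% a negative slope. Without the array at 135 min 2 members passed in culture B and the median was 0.01 per hour. Up to 160 min, the length of culture E, 4 members passed and the median was 0.09 per hour.

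The slopes differed between courses when the difference itself was fitted. Each course is a single culture, so these p-values measure the scatter of arrays and not the spread between cultures. Between the alpha-factor course and culture E the slope of 104 of 128 members was higher in the alpha-factor course (15.4% of all features). The median difference was 0.46 per hour. The alpha-factor course was not fitted against culture B, whose median slope was -0.03 per hour, so the 104 members do not speak for both cdc28 cultures. Between cultures E and B 31 of 124 members had a lower slope in culture E (5.22% of all features), with a median difference of -0.25 per hour. That count was 45 without the culture B array at 135 min and 19 without the arrays at 0 min. With the slide as a random block it was 15. Over arrays up to 160 min, the length of culture E, it was 22, with a median difference of -0.36 per hour. Shares of all features are not given for these settings. The alpha-factor list of positive slopes and the culture E list of negative slopes shared 37 members. That is 56.1% of the alpha-factor list, where 82 of 124 tested members had a negative slope in culture E. It is 45.1% of the culture E list, where 66 of 131 tested members had a positive slope in the alpha-factor course. Neither percentage was above the share of all tested members.

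RPL37A, a zinc-binding 60S protein gene, had the lowest slope in culture E (-0.62 ± 0.08 per hour, SE, adjusted p = 2.52e-05). It started at 1.68, with 0.68 at 10 min, 1.12 at 70 min, 0.36 at 90 min and -0.30 at 160 min, so the 0 min array was the highest and the last the lowest. In the alpha-factor course its slope was positive, and the difference of slopes was 0.77 ± 0.09 per hour (SE, adjusted p = 8.15e-07). RPS7B (-0.54), RPL36A (-0.52), RPS26B (-0.52) and RPL22A (-0.50) followed in culture E. RPS10B had the largest difference of slopes (0.79 ± 0.12 per hour, SE, adjusted p = 2.18e-05). In the alpha-factor course the largest slopes belonged to RPS20 and RPS28B (both 0.46 per hour), RPL9B (0.45), RPS10B (0.40) and RPS9B (0.39). Members with a slope near 0 in culture E were RPL2A, RPL2B, RPS20 and RPP2A, between -0.01 and 0.03 per hour.

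RPL41B, which encodes the smallest ribosomal protein, was the member with a positive slope in culture E (0.17 ± 0.06 per hour, SE, adjusted p = 0.039). With quantile normalization, and with the slide as a random block, 0 members passed with a positive slope there. RPL32 was the member with a negative slope in the alpha-factor course (-0.29 ± 0.07 per hour, SE, adjusted p = 0.00881). Of the stalk genes RPP1A rose in the alpha-factor course (0.18 per hour, adjusted p = 0.0142) and RPP1B fell by 0.30 per hour in culture E (adjusted p = 0.00508). RPP0 had slopes of 0.13, -0.07 and -0.01 per hour in the alpha-factor course, culture E and culture B, none of which passed. In culture E 40 of 42 ribosome biogenesis genes had a negative slope (median -0.57 per hour) and 13 of 13 glycolysis genes a positive slope (median 0.57). Translation factors there had 11 of 26 negative and 1 positive, with SUI1 at -0.50, TIF11 at -0.49 and CAM1 at 0.33 per hour. In culture B, where 0 members passed, 34 of 39 biogenesis genes were negative (median -0.31) and 11 of 13 glycolysis genes positive (median 0.40). In the alpha-factor course 9 of 42 biogenesis genes were negative (median -0.16) and 1 of 13 glycolysis genes positive (median 0.07).

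Within the array letters the culture E slope, fitted here without cycle terms, had a median of -0.18 per hour over the 9 T arrays and -0.36 over the 7 B arrays. Within its slides numbered up to 12 the median was -0.30, and within its higher slide numbers it was -0.18. In the alpha-factor course the medians were 0.22 and 0.21 within T and B. In culture B they were 0.09 within T and -0.10 within B, of opposite sign.

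**Figure D3:**
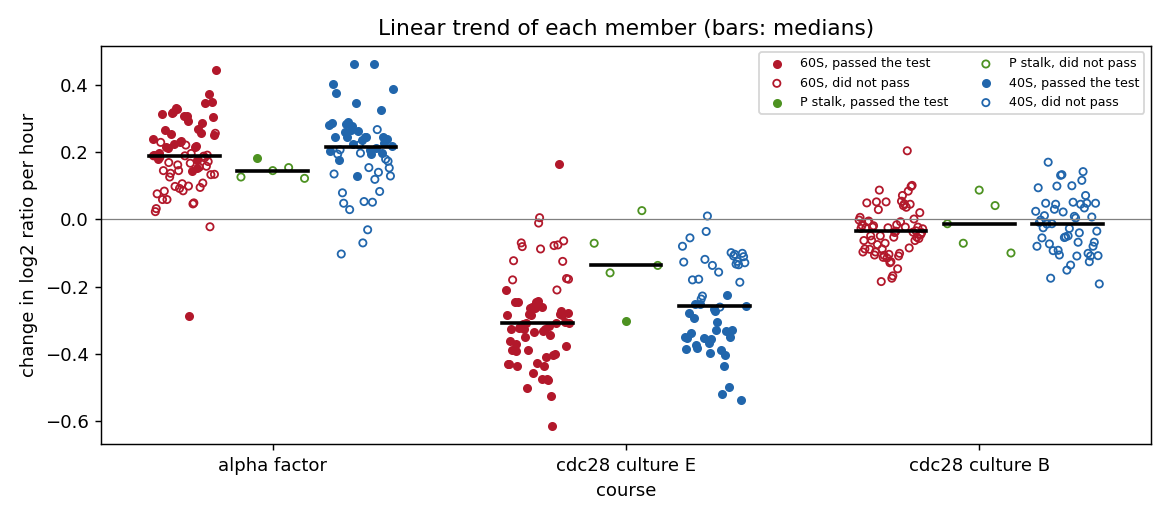
Change of the log2 ratio per hour for each member in the alpha-factor course, cdc28 culture E and cdc28 culture B, in 60S, stalk and 40S genes. Filled points passed the test, open points did not, and bars are medians. Alpha-factor slopes are mostly above 0 (median 0.19), culture E slopes mostly below 0 (median -0.28), and culture B slopes lie around 0 with 0 passing.

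In the cdc28 cultures the first 20 min were compared with the later arrays as well. Of 124 members 2 were higher (21.0% of all features) and 9 lower (19.2%), with a median difference of -0.10. RPL32 was higher in the first 20 min: it had 1.05, 1.25 and 1.14 in culture E and 1.57 and 1.77 in culture B, against -0.08 to 1.09 on the later arrays. Only the later culture B array at 135 min reached that range, and the difference was 1.08 ± 0.10 (SE, adjusted p = 2.97e-09). RPS7B was the other (0.42 ± 0.16, SE, adjusted p = 0.0355). Only 1 member was higher with the slide as a random block, with quantile normalization or without the arrays at 0 min. Lower were RPP0 (-0.70), RPS20 (-0.54), RPL38 (-0.52), RPS3 (-0.50), RPP2A (-0.47), RPS22B (-0.44), RPL3 (-0.41), RPL4B (-0.39) and RPL4A (-0.36). Of these genes 6 (66.7% of the 9 cdc28 genes and 8.22% of the 73 alpha-factor genes) were also lower in the alpha-factor course, where 55.7% of the tested members were. The cdc28 cultures share no array with that course. Without the arrays at 0 min 0 of the 9 cdc28 genes passed. The count of members called was 1 without the arrays at 0 min, 4 without that of culture B and 3 without that of culture E. It was 23 without the culture E array at 20 min and 21 without the culture B array at 135 min. Shares of all features are not given for these fits.

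The difference of the first 20 min from later arrays was itself compared between the alpha-factor and cdc28 groups. It was lower in the alpha-factor course for 9 of 125 members (9.96% of all features), with a median of -0.31. The largest were RPS27A (-0.91), RPS10B (-0.82), RPL28 (-0.75), RPL22B (-0.75) and RPL32 (-0.73, adjusted p = 0.00222). With the slide as a random block 3 passed, and with quantile normalization 2. The alpha-factor course is a single culture, so these p-values do not measure the spread between cultures.

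At the times that both cdc28 cultures share, each later time was set against 0 min, with 2 arrays a time. At 30 min 1 of 125 members was higher (2.42% of all features), at 60 min 2 (1.97%), at 90 min 1 (1.36%) and at 120 min 0 (1.16%), where 11 had an unadjusted p under 0.05. The median differences were 0.35, 0.09, 0.22 and 0.08. The medians differed between the cultures: in culture E alone they were -0.03, 0.12, -0.11 and -0.43, and in culture B alone 0.71, 0.15, 0.61 and 0.68. In culture E the 0 min array has the letter T and the later ones B, while all those of culture B have T. Letter and culture cannot be told apart in this gap. With the letter as a covariate the medians over both cultures were 0.62, 0.39, 0.53 and 0.41. RPL1B, whose protein is part of the L1 stalk of the large subunit, had 0.71 and 0.60 at 30 min in cultures E and B, against -0.56 and -0.17 at 0 min, and was higher by 1.02 ± 0.25 (SE, adjusted p = 0.0475). It was also higher by 1.07 at 60 min (adjusted p = 0.0462) and by 1.10 at 90 min (adjusted p = 0.0487). RPL2B was higher by 1.39 at 60 min (adjusted p = 0.0473). With the culture as a block, pairing the arrays of each culture, 6, 7, 6 and 4 members passed, and RPL32 fell by 1.18, 1.07 and 1.03 at 60, 90 and 120 min. The shares of all features in those fits are not given here.

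**Figure D4:**
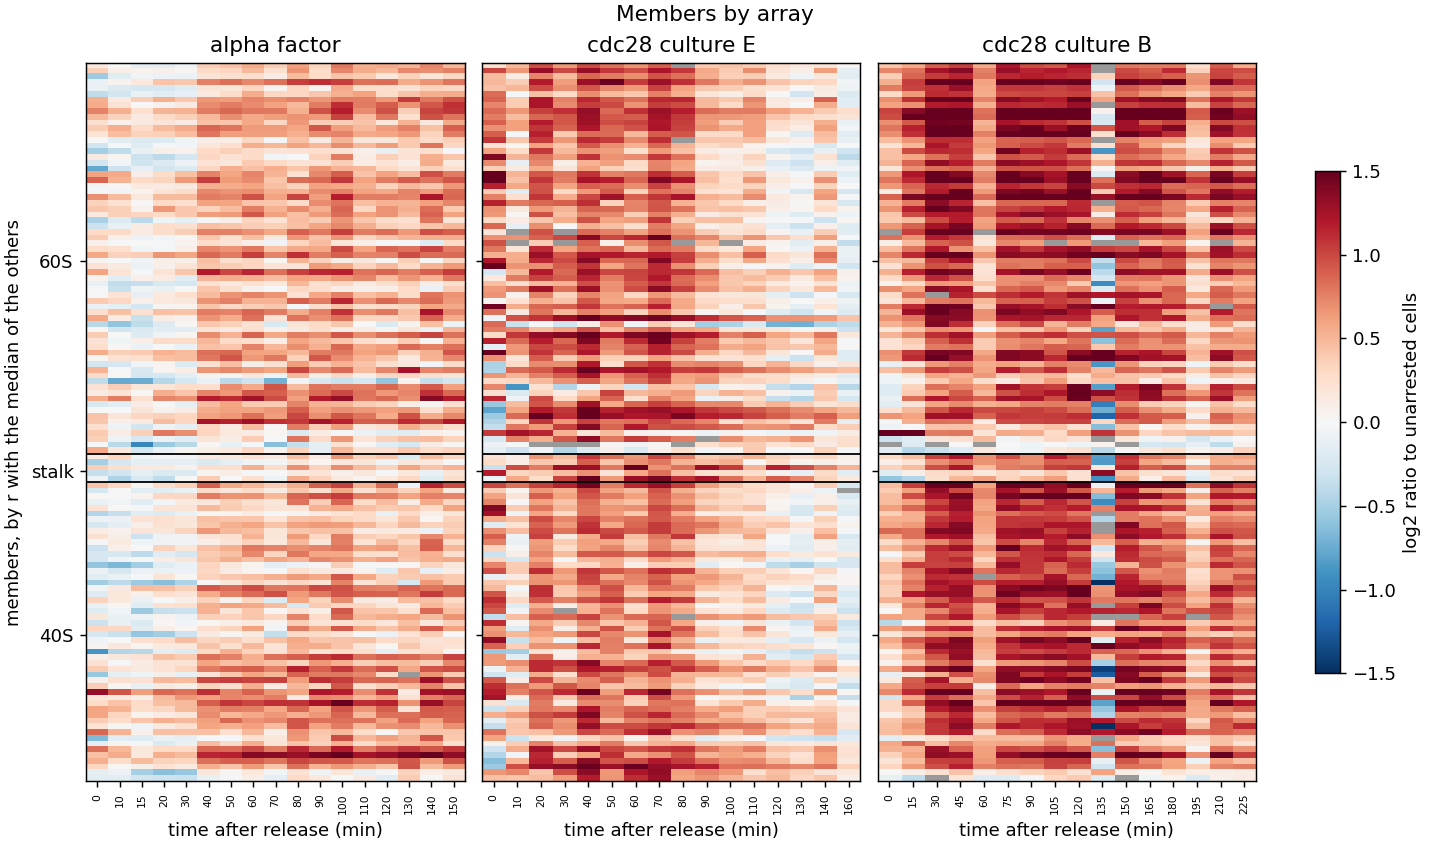
Log2 ratio to unarrested cells (colour) of 125 members (rows, in 60S, stalk and 40S blocks, sorted within each by likeness to the median of the other members) on each array (columns, time after release in min) of the alpha-factor course, cdc28 culture E and cdc28 culture B. Grey cells have no value, and values past the ends of the colour scale take the end colour. Most rows share the column pattern of the medians, and the culture B column at 135 min departs from its neighbours.

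The alpha-factor and cdc28 groups were compared at the 5 times sampled in every course (0, 30, 60, 90 and 120 min). At 0 min the median of the members was 0.13 in alpha-factor cells, against 0.64 and 0.42 in cultures E and B. limma called 0 of 125 members lower (1.2% of all features) and 0 higher, with 3 at an unadjusted p under 0.05 and a median difference of -0.44. The alpha-factor array at 0 min has the letter B and both cdc28 arrays have T, and with the letter as a covariate the median turned to 0.13. Over the mean of the 5 times 6 of 124 members were lower (7.48% of all features) with a median difference of -0.33. They were RPS16B (-0.81), RPL16A (-0.76), RPS9B (-0.76), RPL13A (-0.66), RPP1A (-0.66) and RPS13 (-0.57). RPL16A averaged -0.36 ± 0.13 in alpha-factor cells (SD, n = 5) and 0.41 ± 0.26 in the cdc28 cultures (SD, n = 10, adjusted p = 0.0112). With the culture as a block 22 members were lower, and the share of all features in that fit is not given here. Against culture B alone the median was -0.49, and against culture E alone it was -0.17. Of 8 regulators of ribosomal protein genes 1 was lower and 1 higher. HMO1, a chromatin protein found at ribosomal protein promoters, was lower (-0.58, adjusted p = 0.0394). YAK1, a kinase of the TOR and protein kinase A pathways, was higher (1.20, adjusted p = 0.00167). The other regulators did not pass and ran from -0.63 (IFH1) to 0.37 (SFP1), with RAP1 at -0.22 and FHL1 at 0.17.

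Between the cdc28 cultures, E against B over the 5 shared times, 1 of 124 members was higher (3.2% of all features) and 2 were lower (2.2%), with a median difference of -0.36. RPP0 averaged 0.88 ± 0.55 in culture E and 0.20 ± 0.47 in culture B (SD, n = 5 each, adjusted p = 0.0277). RPS22B averaged -0.09 in culture E and 0.75 in culture B (adjusted p = 0.047), and RPS20 averaged 0.27 in culture E and 1.09 in culture B (adjusted p = 0.0477). By time the median difference of the members was 0.19, -0.52, 0.13, -0.60 and -0.89 at 0, 30, 60, 90 and 120 min. The arrays of both cultures have the letter T at 0 min. At the other 4 times those of E have B and those of B have T, so letter and culture cannot be told apart there. The start of the slide names differs between E and B at all 5 times, 0 min included, and cannot be told apart from culture. Without 0 min 50 members were lower and 4 higher, while without 30, 60, 90 or 120 min 0 passed. The times left without 0 min are those where letter and culture cannot be told apart. Shares of all features are not given for these settings, so the count of 50 cannot be set against them.

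Periodic expression was tested in each course with a sine and a cosine at a period of 53 min (alpha factor), 106 min (culture E) and 128 min (culture B), set on cell cycle marker genes. In the alpha-factor course 9 of 131 members were periodic (26.2% of all features), 8 of them in the large subunit. In culture E 0 of 124 passed (5.75% of all features), with 24 at an unadjusted p under 0.05, and in culture B 0 of 124 (14.1%), with 1 at an unadjusted p under 0.05. The members' median amplitude was 0.11, 0.21 and 0.12 in these courses, against 0.17, 0.15 and 0.17 over all features. Without the array at 135 min the median amplitude in culture B was 0.07, and 0 members passed.

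The largest alpha-factor amplitude was that of RPL43B (0.30 ± 0.07, SE, adjusted p = 0.00617, fitted peak at 47.1 min). RPS26B (0.29, adjusted p = 0.036) peaked at 43.7 min and RPL21A (0.25, adjusted p = 0.00579) at 49.1 min. With a period 10% longer 4 members passed, with a period 10% shorter 0, and with quantile normalization 15. In culture E the largest amplitudes were those of RPS22B (0.37, adjusted p = 0.0538), RPS0B (0.32) and RPS3 (0.31). In culture B they were those of RPS2 (0.41), RPS12 (0.40) and RPS9B (0.40), none of which passed. These amplitudes rested on the array at 135 min: without it they were 0.02, 0.12 and 0.00.

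Across the 49 arrays a member's profile had a median Pearson r of 0.80 with the median of the other members, and 61 of 125 were above 0.8. Without the culture B array at 135 min the median was 0.83, and 74 were above 0.8. These arrays are time points of 3 cultures, so the value is a description. The highest were RPL30 (0.93), whose protein is known to bind its own transcript, RPL17B (0.93) and RPL26B (0.92). The lowest were RPL41B (-0.07), RPL43B (0.09), RPL4A (0.16), RPL32 (0.18), RPL4B (0.27), RPS14A (0.33) and RPP0 (0.37). RPL41B stayed between -0.43 and 0.57 on all arrays. RPS14A and RPS14B, whose products are known to repress RPS14B, had values with r of 0.33 and 0.39.

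Outside the members the 10 features most like their median profile over these arrays were YBR138C (r = 0.92), GIS2 (0.85), MDH2 (0.84), DIA4 (0.84), YPL199C (0.82), ECM11 (0.82) and 4 probes without a gene symbol (0.82 to 0.90). Without the array at 135 min their r lay between 0.82 and 0.92. GIS2 encodes an RNA-binding zinc-finger protein and MDH2 the cytosolic malate dehydrogenase.

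The medians of the large subunit with its stalk and of the small subunit were set against each other on every array. The difference, large minus small, ran from -0.11 to 0.14 in the alpha-factor course (mean -0.02 ± 0.07, SD, n = 17), from -0.03 to 0.15 in culture E (0.05 ± 0.05, n = 16) and from -0.15 to 0.16 in culture B (-0.03 ± 0.08, n = 16). The large subunit was higher on 5 of 17, 13 of 16 and 4 of 16 arrays. Without the array at 135 min the culture B difference ran from -0.15 to 0.06, with a mean of -0.04 ± 0.06 (SD, n = 15) and the large subunit higher on 3 arrays. The shares that passed were also given by subunit: 52.8% of 60S, 61.1% of 40S and 2 of 5 stalk genes were lower in the first 20 min of the alpha-factor course, and 79.1% of 60S genes (52 lower, 1 higher) and 55.8% of 40S genes passed for the culture E slope. No difference between subunits was tested.

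Copies A and B were compared for the 49 of 57 pairs with enough values. The profiles of a pair had a median Pearson r of 0.90 over arrays, against 0.64 for an A copy with the B copy of another pair (2760 combinations). Without the culture B array at 135 min these were 0.90 and 0.67. A minus B compares how far each copy stood from its own level in unarrested cells, not which copy has more RNA. Its absolute mean over arrays had a median of 0.09, and the A copy was higher on average in 27 of 49 pairs. No pair had an absolute mean above 0.5. The mean was larger than the SD over arrays in 2 pairs, and in 3 without the culture B array at 135 min. Probe sequences were not used here: near-identical copies can share signal on such arrays, so the likeness of a pair is uncertain to that extent.

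The largest mean difference was in RPL43, with 0.38 for RPL43A and -0.07 for RPL43B (difference 0.46 ± 0.46, SD, n = 41 arrays). RPL43A was higher on 16 of 17 alpha-factor arrays, 4 of 12 culture E arrays and 12 of 12 culture B arrays. RPS22A averaged 0.69 and RPS22B 0.26 (difference 0.44 ± 0.37, SD, n = 49), with A higher on 47 of 49 arrays. Without the culture B array at 135 min RPS22 had the largest mean difference (0.48 ± 0.23, SD, n = 48), and RPL43 kept 0.46. RPL41A averaged 0.45 and RPL41B 0.06, with mean differences of 0.38, -0.01 and 0.80 in the alpha-factor course, culture E and culture B. RPS28A stood above RPS28B by 0.07, 0.18 and 0.73 in the same courses, and RPL22A above RPL22B by 0.14, 0.63 and 0.10. In the opposite direction RPL16A was below RPL16B on all 17 alpha-factor arrays (mean -0.47 ± 0.22, SD), and by 0.11 to 0.12 on average in both cdc28 cultures.

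Among the most alike pairs were RPL24 (r = 0.98), RPL1 (0.97), RPL4 (0.96) and RPS25 (0.96). The least alike were RPL43 (0.07), RPP1 (0.31), RPL41 (0.44) and RPS9 (0.48). The culture B array at 135 min set part of these: without it RPP1 had r = 0.66 and RPS9 0.75, while RPL43 kept 0.07 and RPL41 had 0.38. Within courses RPL43A and RPL43B had r of 0.53 in the alpha-factor course, -0.61 in culture E and 0.25 in culture B, where it was 0.47 without the array at 135 min.

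**Figure D5:**
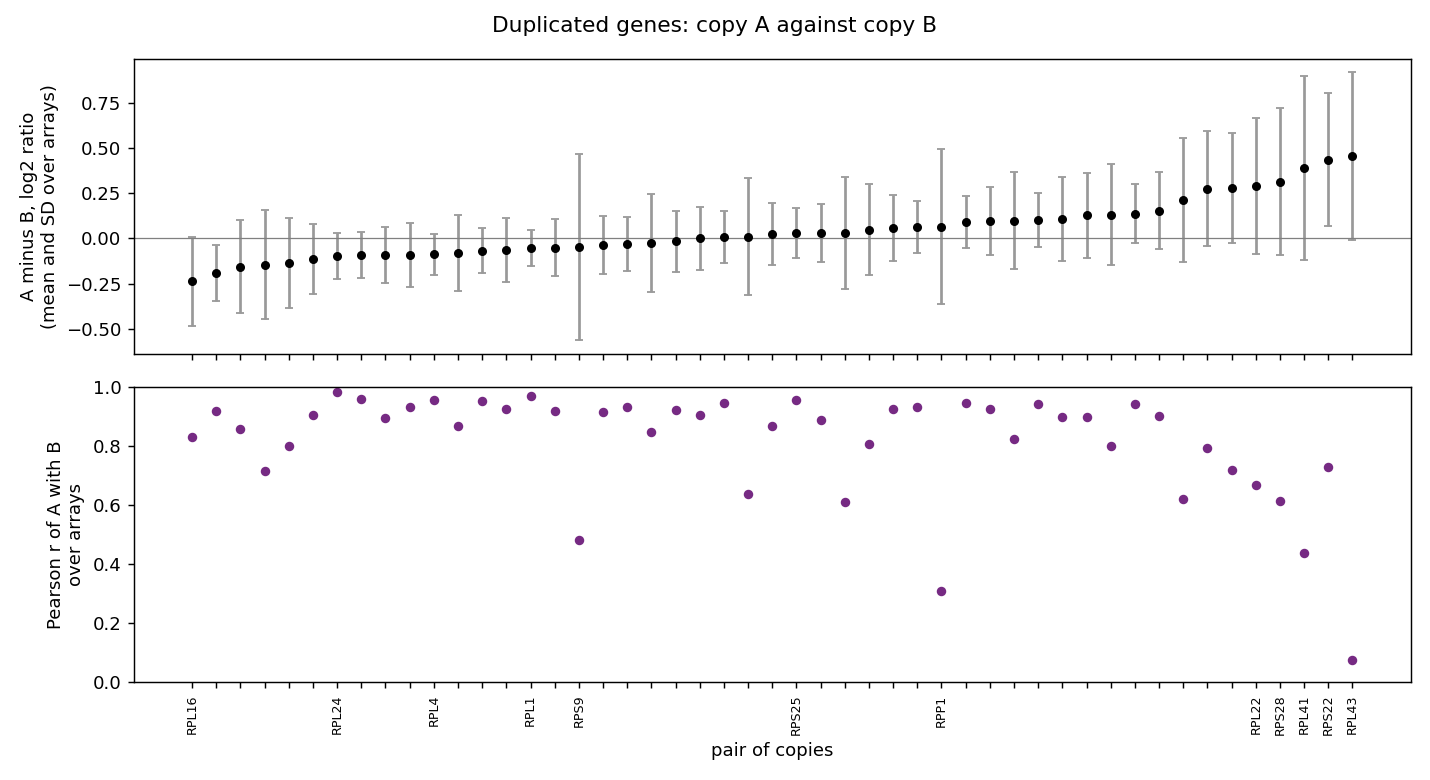
For 49 pairs of gene copies (horizontal axis, sorted by mean difference, with labels on pairs given above for their difference or r), the upper panel plots the mean A minus B of the log2 ratio with its SD over arrays, and the lower panel plots Pearson r of copy A with copy B over arrays. Means run from -0.24 (RPL16) to 0.46 (RPL43), and most r lie above 0.8, with RPL43 lowest at 0.07.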

How the data were processed

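The deposited values are log ratios per probe, taken as log2 of Cy5 (synchronized cells) over Cy3 (unarrested cells), per the labels' dyes. The table states neither the log base nor the centring nor the direction, and the scanner, background correction and normalization were not given in the sources used here. Medians of the deposited columns ran from -0.071 to 0.021, and no pair of arrays correlated below -0.295. Of 6258 probes 688 had no gene symbol and 0 had several; probes of 29 genes were averaged, none of them a member's. All 133 members matched the RefSeq gene table. No genome coordinates were used, and the number of arrays limits the precision.

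Each array was centred on its median. limma 3.58.1 in R 4.3.3 fitted all features with a measured value on at least 80% of its arrays, and p-values were adjusted by Benjamini-Hochberg over them, with a threshold of 0.05. Courses were fitted with a sine, a cosine and a linear trend, at a period scanned from 40 to 160 min. Shared times had 1 mean for each arrest and time, with 5 residual degrees of freedom that come from the paired cdc28 cultures, so the lone alpha-factor array at a time is assumed to vary like them. The labels pair the cdc28 arrays by culture. The difference of E from B correlated over features at 0.54 to 0.87 between 30, 60, 90 and 120 min. With 0 min it correlated at -0.07 to 0.01. At 30, 60, 90 and 120 min the arrays of E have the letter B and those of B have T, while both have T at 0 min. The correlation therefore cannot tell culture from letter, nor from the start of the slide names, which differs between E and B at every time. Fits were tested on simulated data.

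The members, lists and tests were chosen with earlier results of these data known. Trend comparisons, and the alternatives without the 135 min array or with the slide set, were added after seeing the data. Named members were, per comparison, the 5 largest differences each way, those that passed, RPL3, RPP0, RPS3 and RPS31. For pairs they were the 5 largest mean differences and the 5 highest and lowest r, some of which are not reported here, and outside the members the 10 most alike features.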

Additional observations from a re-analysis of the deposited data

Results flagged for a closer look

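No group of the labels holds 4 or more arrays, so no array was tested for lying apart within its group. Fits of a difference between courses gave 3 results. Their p-values measure the scatter of arrays and not the spread between cultures. The slope over time differed between the alpha-factor course and cdc28 culture E for 104 of 128 members (81.2%, against 15.4% of all features in that direction), all higher in the alpha-factor course, with a median difference of 0.46 per hour, and 126 members had that direction. Between cdc28 cultures E and B it differed for 31 of 124 members (25.0%, against 5.22% of all features), all lower in culture E. The median difference was -0.25 per hour, and -0.36 over arrays up to 160 min, the length of culture E. The slope of the alpha-factor course was not fitted against that of culture B. The difference of the first 20 min from later arrays was itself different between the alpha-factor and cdc28 groups for 9 of 125 members, all lower in the alpha-factor course. That is 7.2%, below the 9.96% of all features, and 3 passed with the slide as a random block and 2 with quantile normalization. The largest of the 9 was that of RPS27A, at -0.91.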

How the results depend on the processing

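Of 137 recomputed counts of members 93 stayed within 1.5 times the reported count, and of 145 recomputed medians 130 moved by less than the spread between arrays. The causes of the changes below were not tested. Shares of all features are given for the reported fits only and not for these settings. With quantile normalization the periodic counts were 15 (alpha factor) and 5 (culture E). The culture E slope then had 49 members with a median of -0.181, and the culture B slope 9 with a median of 0.063. The count for the first 20 min in the cdc28 cultures was then 28 and for its difference between groups 2, the counts at 30 and 90 min were 0 and 2, and the 60 min median was 0.365, against 0.118 without centring. A period 10% longer gave 4 periodic members (alpha factor) and 7 (culture E), and 10% shorter gave 0 (alpha factor). In culture E a quadratic trend gave 2, the slide set as a covariate 2 and the slide as a random block 1. That block gave 15 for the slopes of E against B and 3 for the difference of the first 20 min. Values on every array gave 19 for the slopes of E against B, and so did leaving out the arrays at 0 min. Leaving those out gave 4 in the culture B slope, 1 for the first 20 min in the cdc28 cultures, and turned the RPL2B slope in culture E to -0.23. Without the culture B array at 135 min the culture B slope had 2 members and a median of 0.009, and the first 20 min of the cdc28 cultures 21. Arrays up to 160 min gave 4 and 0.086 for the culture B slope.

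With the array letter as a covariate the counts at 30, 60, 90 and 120 min were 11, 7, 5 and 3, and the 60 min median was 0.387. That covariate turned the median of alpha factor minus cdc28 at 0 min to 0.132 and that of E minus B to 0.186, with counts of 24 over the 5 shared times and 5 for E minus B. Pairing the arrays of a culture as a replicate block gave 6, 7, 6 and 4 at 30, 60, 90 and 120 min and 22 for alpha factor against cdc28 over the shared times, and 0 at 0 min as reported. The slide as a random block could not be fitted at the shared times, where every array has its own slide. Leaving out 1 early alpha-factor array gave 38 to 65 members, 1 early cdc28 array 3 to 23 with medians from -0.19 to 0.004, and 1 shared time 0 to 54 for E minus B. With a single cdc28 culture, which leaves no test, the medians ran from -0.028 to 0.711 at 30 min, from 0.116 to 0.148 at 60 min, from -0.112 to 0.607 at 90 min and from -0.431 to 0.679 at 120 min.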
